A study of Mus musculus with 11 samples.

Results

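Keratin-associated protein genes were taken as all genes whose symbol begins with Krtap and a digit, which gave 53 of the 24411 genes measured, in 25 numbered subfamilies. Their transcripts were measured in back skin of mice, in 11 samples, by sequencing of total RNA. Every host was of the strain Tg(act-EGFP)Y01Osb, which carries an EGFP transgene, and its age is labelled 16-18 with no unit. Every host received 10 Gy of irradiation, a graft of sorted femoral marrow cells through the tail vein, 6 weeks of recovery and 6 topical applications of MC903, and skin was taken on day 14 of the dermatitis. MC903 (calcipotriol) is a vitamin D analog used on mouse skin to model atopic dermatitis. The marrow donors were Pdgfra-Cre;tdTomato mice, in which Cre driven by the Pdgfra gene's control regions switches on the red protein tdTomato for good, in a cell and in its descendants. The grafted cells were tdTomato-negative in 7 samples (the negative group) and tdTomato-positive in 4 (the positive group). Skin without irradiation, without a graft or without MC903 was not analysed here, and the labels do not say how much of its own marrow a host kept.

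Keratin-associated proteins form the matrix in which the keratin filaments of the hair shaft are embedded, and their cysteines are cross-linked to hair keratins by disulfide bonds. They are sorted by composition into high-sulfur and ultrahigh-sulfur families, rich in cysteine, and a high glycine-tyrosine family. Their genes lie in clusters, mostly have a single exon, and are transcribed late in the differentiation of cortex and cuticle cells of the shaft, so their transcripts are found in growing follicles. Classes are given here by subfamily number, not by composition: 17 members were high sulfur (such as Krtap1, Krtap3, Krtap14 and Krtap15), 20 ultrahigh sulfur (such as Krtap4, Krtap5 and Krtap9) and 14 high glycine-tyrosine (such as Krtap6, Krtap7, Krtap8 and Krtap19). Krtap31-1 and Krtap31-2 were left without a class.

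On the GRCm38.p6 assembly of RefSeq the members lay on 4 chromosomes. Chromosome 16 held 23 of them, between positions 88610709 and 89571183, among them every high glycine-tyrosine member. Chromosome 11 held 22, between 99550132 and 99993994. Chromosome 7 held the 5 subfamily 5 genes and chromosome 10 held the 3 genes of subfamilies 10 and 12. Krtap16-1 lay on chromosome 11, whereas Krtap16-3, given the same class by its number, lay on chromosome 16 at 88962304 to 88962873, between glycine-tyrosine genes.

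Promoter sequences are shown because the members moved together across samples, as described below. RefSeq promoter windows, 250 bases before the annotated start to 50 after it, were at hand for 48 members. The 90 bases before the start are given for 2 abundant members of each class, in lower case with the TATA box in capitals (TATAAA or its variant TATAAG, searched on the gene's own strand).
Krtap8-1 (high glycine-tyrosine, chr16:89487953-89488042, minus strand): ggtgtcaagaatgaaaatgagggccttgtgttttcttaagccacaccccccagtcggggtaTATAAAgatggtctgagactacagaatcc
Krtap22-2 (high glycine-tyrosine, chr16:89010760-89010849, minus strand): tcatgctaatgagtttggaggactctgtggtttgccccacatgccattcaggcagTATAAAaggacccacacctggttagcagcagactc
Krtap3-1 (high sulfur, chr11:99566631-99566720, minus strand): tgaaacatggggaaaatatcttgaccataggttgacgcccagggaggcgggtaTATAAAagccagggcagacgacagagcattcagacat
Krtap15 (high sulfur, chr16:88828919-88829008, plus strand): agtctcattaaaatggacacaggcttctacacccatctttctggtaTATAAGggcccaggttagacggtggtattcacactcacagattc
Krtap9-3 (ultrahigh sulfur, chr11:99598107-99598196, minus strand): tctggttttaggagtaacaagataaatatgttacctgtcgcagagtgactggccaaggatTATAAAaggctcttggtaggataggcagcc
Krtap4-1 (ultrahigh sulfur, chr11:99628240-99628329, minus strand): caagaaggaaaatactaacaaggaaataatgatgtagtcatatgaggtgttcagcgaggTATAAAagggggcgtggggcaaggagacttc

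A TATA box was the common feature of these starts. TATAAA or TATAAG was found within 250 bases before the start in 46 of 48 member promoters (95.8%), against 11.2% of the 32851 mouse promoters in the same RefSeq table. Only Krtap5-4 and Krtap27-1 had neither in that window. Between 40 and 20 bases before the start, TATAAA stood in 28 of 48 (58.3%), against 1.99% of all promoters. In those 28 it began 27 to 37 bases before the start, with a median of 31.

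Short sites of 2 factors of the hair program were looked for in the same 250 bases, on both strands. For posterior Hox proteins such as Hoxc13, CAATAAA was in 0 of 48 member promoters against 4.2% of all, and TCGTAAA in 1 against 0.478%. For Lef1 and its relatives, CTTTGAA was in 7 of 48 (14.6%) against 4.46% of all, and CTTTGTT in 6 (12.5%) against 5.03%. Of the 7 promoters with CTTTGAA, 6 belonged to high-sulfur members. These counts say only which letters stand in these windows.

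The level of Krtap transcripts ran over 297-fold between samples, and the samples of each group were spread across most of that range. TPM is the unit used for levels: the abundance of a gene's transcripts relative to all transcripts of the sample, corrected for the effective length of each gene. The summed Krtap TPM was 1798, 18949, 39665, 20002, 30136, 27661 and 134 in negative replicates 1 to 7, and 1795, 211, 531 and 13554 in positive replicates 1 to 4. Negative replicates 2 to 6 and positive replicate 4 were thus high, and negative replicates 1 and 7 and positive replicates 1 to 3 were low, so the groups overlapped. In the highest library, negative replicate 3, Krtap genes took 1.25% of all counts and 46 members had at least 100 counts. In the lowest, negative replicate 7, they took 0.00389% of counts, 11 members had at least 10 counts and 13 were at 0. In bulk tissue, fewer cells making a transcript and less transcript per cell cannot be told apart.

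**Figure D1:**
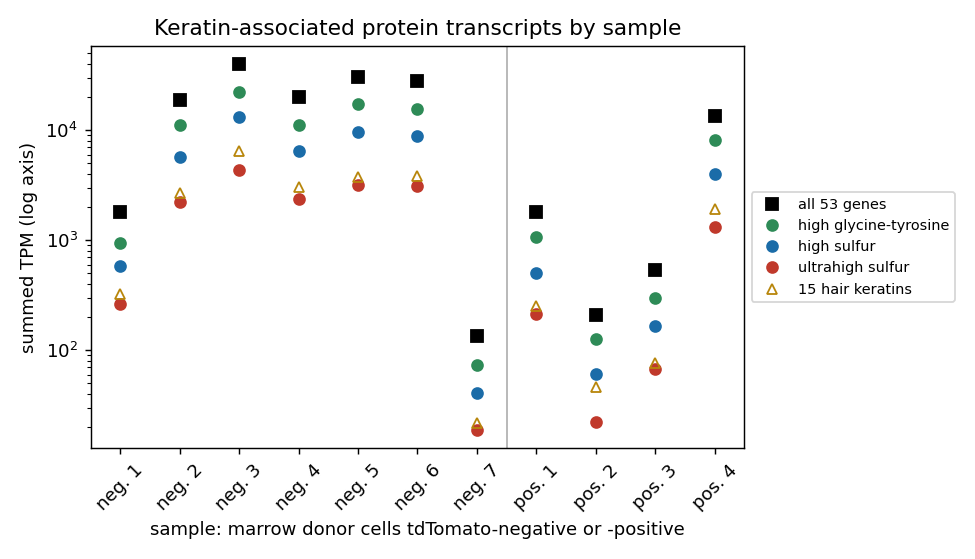
Summed TPM (log axis) of all 53 Krtap genes, of the 3 classes and of 15 hair keratins in each of the 11 samples, 1 point per sample and set. Negative replicate 7 at 134 and negative replicate 3 at 39665 mark the range of the Krtap total, and the classes keep their order in every sample.

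The high glycine-tyrosine class held most of the Krtap TPM in every sample, with shares from 52.9% to 60.3%. High-sulfur members held 28.2% to 33.3%, and ultrahigh-sulfur members 9.81% to 14.6%. The high glycine-tyrosine share was 55.9% ± 1.75 (SD, n = 7) in the negative and 58.9% ± 2.17 (SD, n = 4) in the positive group, and the high-sulfur share 31.7% ± 1.12 and 29.3% ± 1.19. Both shares overlapped between the groups. While the total ran over 297-fold, the makeup by class moved by less than 10 percentage points.

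The most abundant members were 3 single genes of the glycine-tyrosine class. Krtap8-1, the only subfamily 8 gene measured, had 224, 2760, 5343, 2947, 3897, 3979 and 16.6 TPM in negative replicates 1 to 7 and 258, 33.4, 75.0 and 1822 TPM in positive replicates 1 to 4. It followed the total closely, with negative replicate 3 highest, negative replicate 7 lowest and positive replicate 4 sixth. Its share of the Krtap TPM was the steadiest of those measured, 12.5% to 15.8%. Krtap7-1, the only subfamily 7 gene, had a negative range of 16.6 to 5266 TPM with a median of 2738, and 222, 31.4, 68.9 and 1436 TPM in the positive samples. Krtap22-2 had 18.9 to 4130 TPM with a median of 2156 in the negative and 219, 18.6, 48.8 and 1379 TPM in the positive samples. These 3 genes are shorter than the median member of 830 bases, and Krtap8-1 and Krtap7-1 together made up 26.5% of the Krtap TPM on average over the 11 samples. Krtap6-5 had a median of 984 TPM in the negative and 79.6, 9.80, 29.4 and 690 TPM in the positive samples. Krtap19-3 had a median of 568.03 TPM in the negative and 48.8, 6.31, 18.4 and 640 TPM in the positive samples. Krtap6-5 had fractional counts in all 11 samples, so its reads were partly divided with other genes.

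Among high-sulfur members Krtap3-1 led, with 6.68 to 2396 TPM and a median of 1181 in the negative and 103, 10.6, 31.6 and 645 TPM in the positive samples. Krtap15 and Krtap14, neighbours on chromosome 16, followed. Krtap15 had a negative median of 1070 TPM and 37.6, 5.34, 23.6 and 551 TPM in the positive samples. Krtap14 had a negative median of 623 TPM and 25.3, 3.66, 12.4 and 267 TPM in the positive samples. For each of these genes, as for the total, positive replicate 4 lay between negative replicates 1 and 2. Krtap3-3 had a negative median of 591 TPM and a positive range of 7.16 to 439. Krtap16-3, whose high-sulfur class rests on its number only, had a negative median of 375 TPM and a positive range of 3.31 to 499.

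The ultrahigh-sulfur members were many and lower. Krtap9-3 had 2 to 1079 TPM with a median of 500 in the negative and 40.6, 3.23, 12.1 and 261 TPM in the positive samples. The next most abundant were genes of subfamily 4, Krtap4-1 with a negative median of 362 TPM, Krtap4-7 with 344, Krtap4-16 with 225 and Krtap4-2 with 216. In the positive samples these 4 genes had 2.06 to 33.5 TPM in replicates 1 to 3 and 112 to 210 TPM in replicate 4. The 5 subfamily 5 genes stayed at or below 66.4 TPM in every sample. Reads of many Krtap genes were divided with other genes: 32 of the 53 members had an expected count further than 0.005 from a whole number in at least 1 sample, 17 of them ultrahigh sulfur, 7 high sulfur, 6 high glycine-tyrosine and 2 of subfamily 31. Over all members and samples 41.3% of values were of this kind, against 8.17% of all values in the files. Levels of most single members of subfamilies 4, 9 and 10 therefore rest partly on how reads were divided. In at least 1 sample this holds too for every member of subfamilies 1, 2, 3, 5, 6, 12, 21 and 31. Of the high-sulfur genes described above, Krtap3-1 had fractional counts in 5 samples and Krtap3-3 in all 11.

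Of the 52 members with any count, 43 were highest in negative replicate 3. Negative replicate 7 alone was lowest for 32 and positive replicate 2 alone for 11, and the other 9 were at 0 in more than 1 sample. Krtap13 was at 0 in all 11 samples, which allows up to 3 counts in each. Krtap20-2 had 0 to 18 counts per sample and was too low to test. As a description over the 11 samples, which share library depth and the total itself, the Pearson correlation of a member's log2(TPM + 1) with the log2 of the total had a median of 0.99 and was over 0.95 for 45 members. The share of the Krtap TPM that a member held varied less than the levels. Among the 49 members with at least 10 counts in 6 or more samples, the highest share was 1.98 times the lowest at the median, and under 2 times for 25.

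The comparison of the groups asks whether skin differed when the grafted marrow cells were of the Pdgfra lineage. The mean Krtap total was 4023 ± 6391 TPM (SD, n = 4) in the positive and 19764 ± 14576 TPM (SD, n = 7) in the negative group, a ratio of 0.204. The ratio was 0.0428 without positive replicate 4, and between 0.175 and 0.268 when any other single sample was left out. Of the 53 members, 51 passed the filter on low counts. In the edgeR quasi-likelihood test across 14588 genes, 0 of 51 members passed an adjusted p of 0.05 in either direction, against 0% of all genes. At an unadjusted p under 0.05, 12 of 51 members were lower in the positive group, against 9.73% of all genes, and 0 were higher, against 7.05%. No member had every positive sample below every negative one, against 1.06% of all genes, and none had every positive sample above, against 0.61%.

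The fitted log2 fold changes of members, positive minus negative, had a median of -2.41, against -0.01 over all genes tested, and 49 of 51 were below 0. By class the medians were -2.47 for high sulfur (2 of 16 with an unadjusted p under 0.05), -2.57 for ultrahigh sulfur (10 of 20) and -2.17 for high glycine-tyrosine (0 of 13). Over all genes tested, 9.73% were lower at that p. The 10 ultrahigh-sulfur members were 5 of subfamily 4, Krtap5-1, Krtap5-4, Krtap9-1, Krtap10-4 and Krtap12-1, and the others were Krtap2-4 and Krtap14. The most abundant gene, Krtap8-1, had -2.42 ± 1.32 (SE) with an adjusted p of 0.363, and Krtap7-1 had -2.64 ± 1.33 with an adjusted p of 0.328. Krtap3-1 had -2.66 ± 1.30 with an adjusted p of 0.319. Within the negative group alone the Krtap total ran over 297-fold, against the ratio of 0.204 between the group means.

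**Figure D2:**
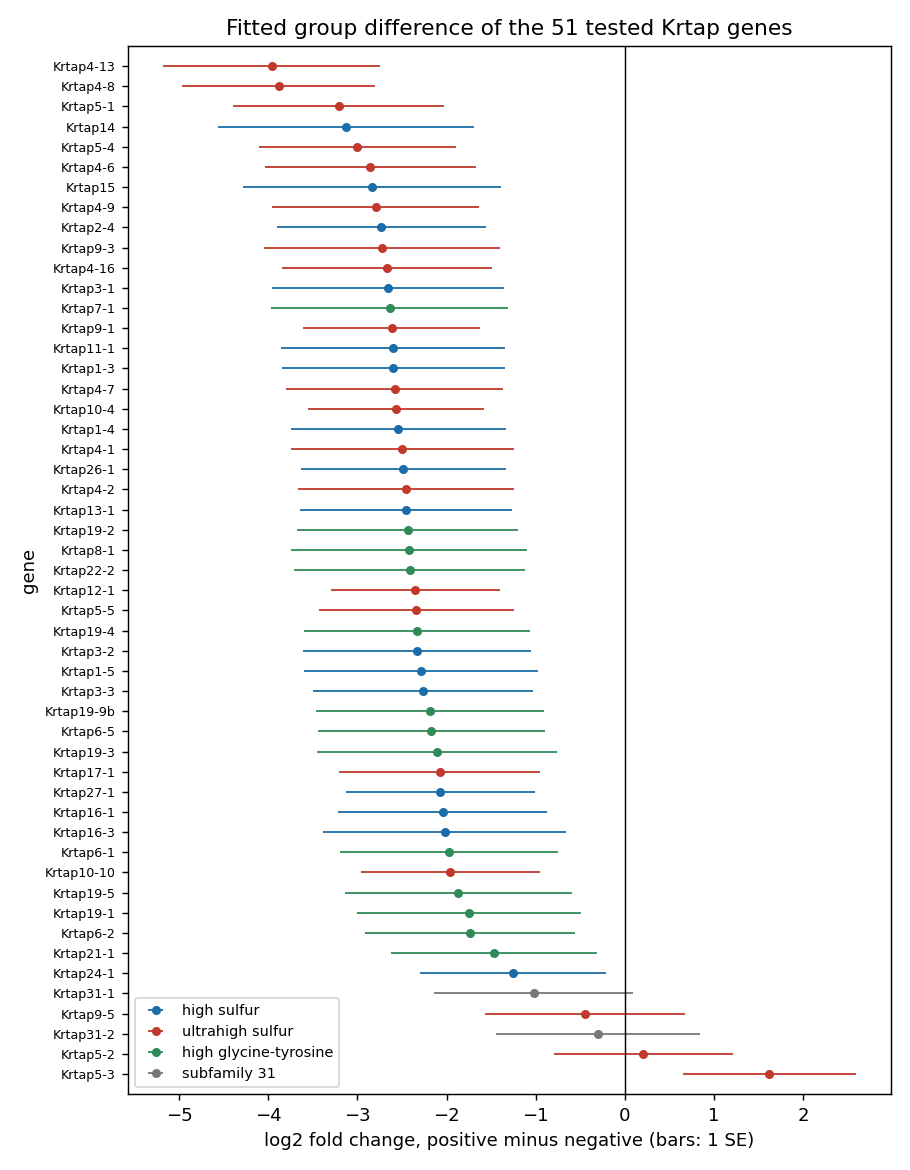
Fitted log2 fold change (x axis, positive minus negative, bars 1 SE) of each of the 51 tested Krtap genes, coloured by class and ordered by size. Krtap5-2 and Krtap5-3 lie above 0, the other 49 genes below it.

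The count of members depended on single samples. Without positive replicate 4, 50 of 52 tested members were lower at an unadjusted p under 0.05, against 11.6% of all genes, the median was -4.51 and the smallest adjusted p was 0.155. Without negative replicate 7 the count was 37 of 51, against 12.1% of all genes, with a smallest adjusted p of 0.0791. Without negative replicate 1 it was 26 of 50, against 12% of all genes. It was 3 of 51 without positive replicate 1 (5.66% of all genes), 2 of 52 without positive replicate 2 (5.08%) and 3 of 52 without positive replicate 3 (8.88%). It was 6 of 51 without negative replicate 3 (6.8%) and 7 of 51 without negative replicate 6 (7.27%). Without negative replicates 2, 4 and 5 it was 9 of 51, 9 of 51 and 8 of 50, against 8.61%, 7.83% and 7.91% of all genes. In the edgeR test no member passed the adjusted threshold in any of these.

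The median log2 fold change of the members was -2.39 in DESeq2 and -4.48 in voom with sample quality weights, which gives less weight to samples far from their group. DESeq2 called 0 members at an adjusted p of 0.05, against 0.274% of all genes lower and 0.295% higher, and voom without weights called 0 members, against 0%. Voom with sample quality weights called 3 members lower, against 7.62% of all genes lower and 6.73% higher. They were Krtap5-1 (log2 fold change -4.09, adjusted p 0.0315), Krtap7-1 (-4.55, 0.0433) and Krtap8-1 (-4.50, 0.0467), of which Krtap5-1 is named after its values were seen.

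The members with the smallest p were ultrahigh-sulfur genes that were low in positive replicate 4 as well, relative to its Krtap total. Krtap4-13 (chromosome 11, 99809078 to 99809896) had 3.38, 65.5, 101, 65.6, 56.4, 71.7 and 0.36 TPM in negative replicates 1 to 7 and 3.61, 0, 0 and 11.2 TPM in positive replicates 1 to 4. The fitted log2 fold change was -3.96 ± 1.22 (SE), and the adjusted p in edgeR was 0.248. Krtap4-8 (chromosome 11, 99780014 to 99780643) had 4.05, 31.5, 91.0, 34.7, 29.8, 43.7 and 0.94 TPM in the negative and 2.09, 0, 1.62 and 6.44 TPM in the positive samples. The fitted log2 fold change was -3.88 ± 1.08, and the adjusted p in edgeR was again 0.248. In both genes positive replicate 4 held a smaller share of the Krtap TPM than any other sample with at least 10 counts, 0.0823% for Krtap4-13 and 0.0475% for Krtap4-8. The same held for several other members, among them Krtap3-1 (4.76%) and Krtap7-1 (10.6%). Both genes were picked by their p, which a low value in positive replicate 4 makes smaller. Among samples with at least 10 counts, the highest shares were 0.346% and 0.229%. Few positive samples had that many: replicates 1 and 4 for Krtap4-13, and only replicate 4 for Krtap4-8. The groups can therefore not be compared by these highest shares. Below 10 counts, Krtap4-8 held 0.703% in negative replicate 7 and 0.305% in positive replicate 3. Both genes had fractional counts, in 8 and 9 samples. Krtap5-4 (chromosome 7) had 0 to 31.1 TPM with a median of 14.3 in the negative and 0.97, 0.25, 0 and 6.65 TPM in the positive samples, with -2.999 ± 1.10 and an adjusted p of 0.254.

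Other members ranked positive replicate 4 higher than the Krtap total did. Positive replicate 4 had the sixth highest Krtap total, and 35 of 52 members put it sixth too. In 4 members it was the highest of all 11 samples: Krtap5-2, Krtap5-3, Krtap9-5 and Krtap31-2. Its rank was 2 for Krtap24-1 and Krtap31-1, and 3 for Krtap19-1 and Krtap21-1. It was 4 for Krtap16-3, Krtap19-3, Krtap19-4 and Krtap19-5, and 5 for Krtap6-2, Krtap19-2, Krtap19-9b and Krtap27-1. Krtap16-3 and Krtap19-3 were named for their level. Krtap5-3, Krtap31-2 and Krtap9-5 had the lowest correlations with the total among tested members (0.373, 0.840 and 0.886). The other genes ranked above sixth were singled out after their values were seen.

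Krtap5-3, an ultrahigh-sulfur gene on chromosome 7 (142201364 to 142203015), followed the total least. It had 2.60, 0.59, 0.54, 0.51, 3.69, 0.99 and 0 TPM in negative replicates 1 to 7 and 1.72, 0.41, 0.35 and 14.2 TPM in positive replicates 1 to 4. The 14.2 TPM stood on 94.0 expected counts, and the other samples had 0 to 26.1. On the log2 scale it differed by 1.62 ± 0.97 (SE), with an adjusted p of 0.397 in edgeR, and by -0.64 without positive replicate 4. Krtap5-2 had 0 to 12.8 TPM with a highest value in negative replicate 5, and 2.87, 0, 0.80 and 33.5 TPM in the positive samples. Its log2 fold change was 0.20 ± 1.003, and -2.64 without positive replicate 4. The other 3 subfamily 5 genes ranked positive replicate 4 sixth. Krtap5-1 had 2.61 TPM there and up to 14.6 in the negative samples, and Krtap5-5 had 20.8 there and up to 66.4.

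**Figure D3:**
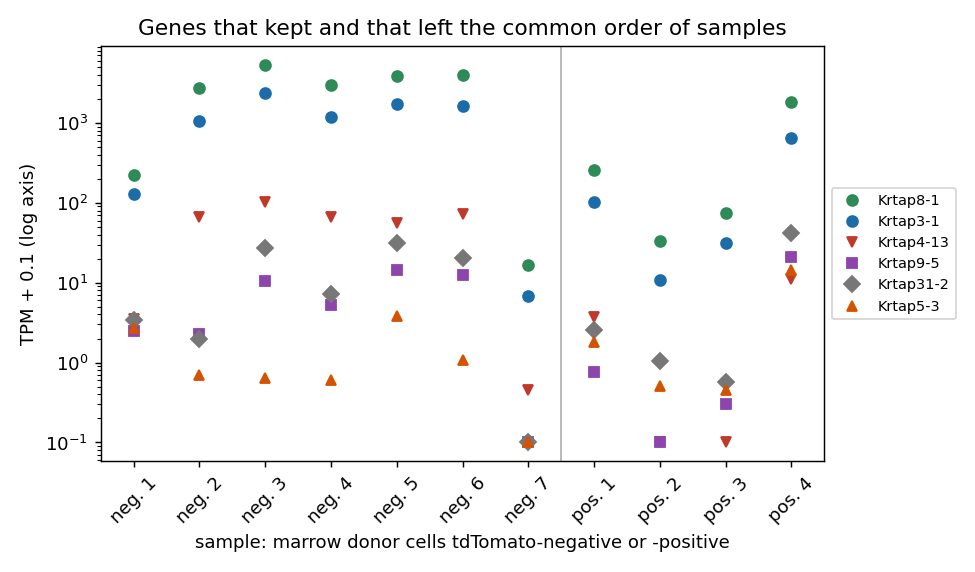
TPM + 0.1 (log axis) of 6 Krtap genes in each sample; points at 0.1 are genes listed at 0 TPM. Krtap8-1 and Krtap3-1 follow the total, Krtap4-13 is low in positive replicate 4 for its Krtap total (11.2 TPM, rank 6 of 11), and Krtap9-5, Krtap31-2 and Krtap5-3 are highest there (20.7, 42.2 and 14.2 TPM).

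Krtap31-2, Krtap9-5 and Krtap31-1, for which positive replicate 4 also ranked first or second, followed each other among the members on chromosome 11. Krtap31-2 (99936291 to 99937225) had 3.27, 1.89, 27.4, 7.03, 30.9, 20.5 and 0 TPM in the negative and 2.46, 0.95, 0.47 and 42.2 TPM in the positive samples, with a log2 fold change of -0.30 ± 1.14 (SE) and an adjusted p of 0.911 in edgeR. Krtap9-5 (99948424 to 99949551) had 2.40, 2.21, 10.4, 5.16, 14.2, 12.3 and 0 TPM in the negative and 0.67, 0, 0.20 and 20.7 TPM in the positive samples, with -0.44 ± 1.12 and an adjusted p of 0.862. Krtap31-1 had 3.71, 13.1, 58.5, 24.9, 45.2, 44.1 and 0 TPM in the negative and 6.69, 0, 2 and 49.7 TPM in the positive samples, with -1.02 ± 1.11 and an adjusted p of 0.651. In negative replicates 2 and 4, where the total was near that of positive replicate 4, these genes were lower: Krtap31-2 had 1.89 and 7.03 TPM there and Krtap9-5 had 2.21 and 5.16. Krtap31-1 and Krtap31-2 had fractional counts in 8 and 9 samples, whereas Krtap9-5 had whole counts in all samples.

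The same 3 genes shared a promoter sequence, looked for after their values were seen. The 90 bases before the start are given for them with a run of 23 bases in capitals that is identical in all 3 and begins 60 bases before the start.
Krtap31-1 (chr11:99907830-99907919, plus strand): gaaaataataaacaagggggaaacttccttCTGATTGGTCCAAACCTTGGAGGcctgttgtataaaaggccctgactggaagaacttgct
Krtap31-2 (chr11:99936201-99936290, plus strand): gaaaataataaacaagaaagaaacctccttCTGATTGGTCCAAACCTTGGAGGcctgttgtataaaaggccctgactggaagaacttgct
Krtap9-5 (chr11:99948334-99948423, plus strand): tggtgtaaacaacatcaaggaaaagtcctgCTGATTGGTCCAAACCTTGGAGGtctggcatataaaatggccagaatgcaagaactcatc

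Krtap31-1 and Krtap31-2 differed at 4 of these 90 bases, all outside the shared run. The run was present in 4 of the 32851 mouse promoters, read on the gene's strand, those of these 3 genes and that of Gm11565. Gm11565 is no member by its symbol and lies between Krtap31-1 and Krtap31-2 on chromosome 11 (99914751 to 99915671). Its TPM was 9.36, 38.7, 138, 51.7, 80.9, 97.3 and 0.92 in the negative and 5.29, 0.68, 2.86 and 84.4 in the positive samples. Positive replicate 4 was the third in its order of samples, and it differed by -1.48 ± 1.14 on the log2 scale, with an adjusted p of 0.507 in edgeR. Krtap5-2, Krtap5-3, Krtap24-1, Krtap19-1 and Krtap21-1, the other genes with a high rank in positive replicate 4, lacked the run in the windows searched. Among all 1128 pairs of the 48 member promoters, 18 pairs shared a run of at least 15 bases in the 90 bases before the start. Runs as long as this one were found in 7 pairs: the 3 pairs of these genes and 4 pairs within subfamily 4, where the longest had 45 bases.

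Subfamily 19, with 6 genes of the glycine-tyrosine class side by side on chromosome 16, varied among its own members. Over samples with at least 10 counts, the highest share of the Krtap TPM was 1.66 times the lowest for Krtap19-9b, 1.74 for Krtap19-3, 2.01 for Krtap19-5, 2.93 for Krtap19-4, 2.99 for Krtap19-2 and 4.64 for Krtap19-1. Krtap19-1 had 12.1, 31.6, 204, 32.7, 213, 91.2 and 0.77 TPM in negative replicates 1 to 7 and 7.11, 0, 0.61 and 103 TPM in positive replicates 1 to 4. It was highest in negative replicate 5, not negative replicate 3. Krtap19-1 and Krtap19-2 had fractional counts in 7 samples each, and the other subfamily 19 genes in 0. The ratios rest on unlike sets of samples: 6 for Krtap19-4, 8 for Krtap19-1, Krtap19-2 and Krtap19-5, and 10 for Krtap19-3 and Krtap19-9b. Whether the division of reads adds to the variation was not tested. Krtap19-4 was listed with only 304 bases, so its TPM rests on an effective length of 93.1 to 111 bases.

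Most other transcripts of the growing hair followed the Krtap total, and none of those listed here passed the adjusted threshold in the edgeR test. The 15 hair keratins, which form the filaments of the shaft, summed to 12.3% to 18.2% of the Krtap TPM in the negative samples and to 14.1%, 22.1%, 14.5% and 14.3% in positive replicates 1 to 4. Their median log2 fold change was -2.30, and 2 of 15 were lower at an unadjusted p under 0.05, against 9.73% of all genes. Krt33a had 3.13 to 1092 TPM with a median of 537 in the negative and 42.2, 7.36, 15.4 and 355 TPM in the positive samples. Krt34 had a negative median of 484 TPM and a positive range of 7.31 to 266, and Krt86 435 and 5.76 to 232. S100a3, a calcium-binding protein of the hair cuticle, had a negative median of 964 TPM and 85.5, 11.4, 26.8 and 780 TPM in the positive samples. Of the 10 other hair shaft genes 4 had an unadjusted p under 0.05 in the lower direction, against 9.73% of all genes, with a median of -1.84. Selenbp1, named after its values were seen, did not follow the total: it had 14.1 to 17.8 TPM in the negative and 17.8, 14.7, 10.1 and 37.5 TPM in the positive samples, and its log2 fold change of 0.29 was the only one of the 10 above 0. The correlation with the total, as a description over the 11 samples, was 0.314 for Selenbp1 and 0.720 for Tgm3.

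The inner root sheath, the layer that encloses and moulds the growing shaft, was covered by 9 genes. Krt71 had 36.0 to 6311 TPM with a median of 3870 in the negative and 416, 78.2, 132 and 2144 TPM in the positive samples. Tchh, trichohyalin, had a negative median of 3939 TPM and 479, 79.2, 167 and 2121 TPM in the positive samples. The Krtap total divided by the summed TPM of the 9 genes was 0.747 in negative replicate 7 and 0.741 in positive replicate 2, the lowest Krtap totals. It was 1.73, 1.86 and 1.75 in negative replicates 3 and 5 and positive replicate 4. In the other samples it lay between these values. Among them were negative replicates 2, 4 and 6, with higher Krtap totals than positive replicate 4. The same quotient over the 15 hair keratins ran from 4.53 to 8.12, and was 6.13 in negative replicate 7 and 6.17 in negative replicate 3. For the sheath genes the median log2 fold change was -2.48, and 3 of 9 were lower at an unadjusted p under 0.05, against 9.73% of all genes.

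**Figure D4:**
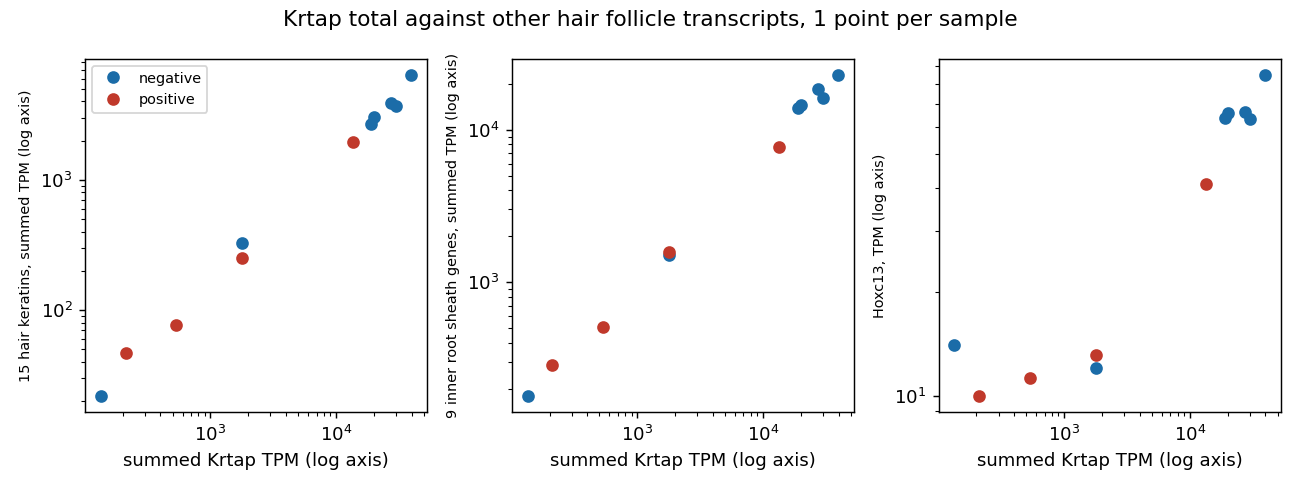
Summed Krtap TPM (x axis, log) against the summed TPM of 15 hair keratins, of 9 inner root sheath genes and the TPM of Hoxc13 (y axes, log), 1 point per sample, coloured by group. Hoxc13 stays between 9.96 and 14.0 TPM in the 5 samples with low Krtap totals, while the keratin sum follows the total over its whole range.

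Regulators of hair differentiation ran over a smaller range. Hoxc13, a homeobox factor required for hair keratin expression, had 12.02, 63.7, 85.2, 66.0, 63.5, 66.2 and 14.0 TPM in the negative and 13.1, 9.96, 11.3 and 41.1 TPM in the positive samples. The 5 samples with low Krtap totals lay together at 9.96 to 14.0 TPM of Hoxc13, although their Krtap totals ran from 134 to 1798 TPM. Foxn1, the forkhead factor lost in nude mice, had 7.45 to 38.5 TPM with a median of 20.4 in the negative and 5.14, 4, 7.38 and 18.7 TPM in the positive samples. Their log2 fold changes were -1.56 ± 0.61 and -1.29 ± 0.53 (SE), with edgeR adjusted p-values of 0.260 and 0.269. The homeobox factors Dlx3 and Cux1 had -1.75 ± 0.75 and -1.02 ± 0.40. Gata3, the regulator with the highest mean TPM, moved less, with -0.44 ± 0.15 and an edgeR adjusted p of 0.248. It had 87.8 to 120 TPM in the negative and 58.9 to 106 TPM in the positive samples. Trps1, named after its values were seen, did not follow the Krtap total (correlation -0.227). Its mean was 20.6 TPM in the negative and 23.8 TPM in the positive group. Of the 11 regulators 10 had a log2 fold change below 0 and 1 above it. Of the 11 regulators 7 had an unadjusted p under 0.05 in the lower direction, against 9.73% of all genes, with a median of -1.03. In Foxq1 and Ovol1, named after their values were seen, every positive sample lay below every negative one, including positive replicate 4. Over all genes this held for 1.06%. The gaps were small. Foxq1 had 17.3 TPM in positive replicate 3 and 17.5 in negative replicate 7. Ovol1 had 47.7 TPM in positive replicate 4 and 48.4 in negative replicate 1. At an adjusted p of 0.05 DESeq2 called 2 of the 11 regulators lower and none of the hair keratins, other shaft genes or sheath genes. Over all genes DESeq2 called 0.274% lower. Quality-weighted voom called 8 of 11 regulators, 5 of 9 sheath genes, 4 of 10 other shaft genes and 0 of 15 hair keratins lower. Over all genes it called 7.62% lower.

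Markers of other cells of the skin are given beside the Krtap totals, and their part in the group difference was not tested. The 7 pigment cell markers label melanocytes that sit largely in the growing follicle of mouse back skin. All 7 had an unadjusted p under 0.05 in the lower direction, against 9.73% of all genes, with a median of -1.58. None of the 7 passed the adjusted threshold in edgeR. DESeq2 gave 4 of them an adjusted p and called 3 lower, against 0.274% of all genes. Quality-weighted voom called 3 of 7 lower, against 7.62% of all genes. The summed TPM of the 7 was 33.6 to 126 in the negative and 9.44 to 40.3 in the positive samples. In positive replicate 4, with its high Krtap total, it was 40.3. The 4 markers of dividing cells summed to 76.8 to 222 TPM in the negative and 136 to 215 in the positive samples, with a median log2 fold change of 0.04. The 5 epidermal genes, whose defining markers Krt5 and Krt14 were present in all samples, summed to 8049 to 28963 TPM in the negative and 15390 to 27267 in the positive samples, lowest in negative replicate 3 and highest in negative replicate 7, with 0 of 5 at an unadjusted p under 0.05. Fibroblast and leukocyte markers summed to 2412 to 6420 and 46.5 to 89.8 TPM in the negative and to 3000 to 4825 and 74.3 to 162 TPM in the positive samples. Of these, 2 of 4 and 2 of 3 were higher at an unadjusted p under 0.05. Over all genes 7.05% were higher at that p. Sebaceous and muscle markers had 0 of 3 each at that p in either direction, and adipocyte markers 2 of 3 in the higher direction. In Adipoq, named after its values were seen, every positive sample (89.0 to 137 TPM) lay above every negative one (52.0 to 82.7). Over all genes this held for 0.61%. DESeq2 called 1 of 3 adipocyte markers higher, against 0.295% of all genes. Quality-weighted voom called 2 of 3 adipocyte, 2 of 4 fibroblast and 2 of 3 leukocyte markers higher, against 6.73%.

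Totals of expected counts ran from 7190752 to 9749842 per sample. Whether every numbered sample was a separate animal is not in the labels, and the spread that the p-values rest on is that between samples, which may be partly technical.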

How the data were processed

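Back skin gave 11 samples, 7 negative and 4 positive. Per the labels' protocols, ribosomal RNA was removed with RNase H before library preparation. RSEM, Trim Galore, bcl2fastq and the GRCm38 build are named in the submitters' processing notes. Neither versions nor the aligner or the use of strand is given in the sources used here. The authors deposited expected counts, which are estimated, unnormalized read counts per gene, in which reads that map to several genes are divided between them, per the file headers. The TPM deposited by the authors are relative to each gene's effective length, which was deposited beside them and used in 1 alternative. The FPKM deposited by the authors were not used.

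Expected counts were rounded to whole numbers, filtered with filterByExpr (minimum count 10, minimum total 15) and scaled with TMM factors. Of 24411 genes 14588 were tested with edgeR 4.0.16 (glmQLFit in its legacy mode, glmQLFTest, group as the only term, Benjamini-Hochberg adjustment, threshold 0.05; R 4.3.3). Summed TPM, shares and correlations are descriptions, with no test. A count of 0 allows up to 3 counts in a sample, a limit that covers counting error only, because reads carried no molecular identifiers. No library was a copy of another: the chi-square per degree of freedom between samples was at least 3.53. The scripts were tested on simulated data.

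The members and lists were chosen with earlier results of these data known. Genes were named by a rule: per class the 5 tested members with the highest mean TPM, the 3 with the smallest p, the 3 with the lowest correlation with the total, and the 3 most abundant of each list of other hair genes with Hoxc13 and Foxn1. Lists held hair keratins (Krt87 had no match), other hair shaft, inner root sheath and regulator genes, and markers of epidermis, fibroblasts, leukocytes, melanocytes, dividing cells, sebaceous gland, muscle and adipocytes. Alternatives were other scalings and filters, the newer mode of glmQLFit, DESeq2 1.42.0, limma 3.58.1 (voom, voom with quality weights per sample, and limma-trend at pseudocounts of 1 and 0.1 TPM), an effective-length offset, members without fractional counts, the fit with a replicate block, and each sample left out in turn. DESeq2 left 1981 adjusted p-values as NA. RefSeq gave promoters and coordinates, on GRCm38.p6.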

Additional observations from a re-analysis of the deposited data

Results flagged for a closer look

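Of 86 sets of values looked at within groups of 4 or 7 samples, 34 held a sample far from the others of its group. The cutoff gives about 5% by chance only for normally distributed values, which TPM with so wide a range are not. Some sets are genes named by their p or correlation, which positive replicate 4 enters. The sets are not independent, since most of them follow the same samples. The 34 are therefore a description only. In 33 of the 34 the sample was positive replicate 4, high against the other 3 positive samples.

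The summed Krtap TPM there was 13554, with 211 to 1795 in the others. By class it was 3977 for high sulfur, 1330 for ultrahigh sulfur and 8155 for high glycine-tyrosine. Glycine-tyrosine genes had 1822 TPM (Krtap8-1), 1436 (Krtap7-1), 1379 (Krtap22-2), 690 (Krtap6-5) and 640 (Krtap19-3). High-sulfur genes had 645 TPM (Krtap3-1), 551 (Krtap15), 267 (Krtap14), 439 (Krtap3-3) and 499 (Krtap16-3). Ultrahigh-sulfur genes had 261 TPM (Krtap9-3), 210.2 (Krtap4-1), 187 (Krtap4-7), 112 (Krtap4-16) and 131 (Krtap4-2). Low ultrahigh-sulfur genes had 6.65 TPM (Krtap5-4), 14.2 (Krtap5-3) and 20.7 (Krtap9-5), and Krtap31-2 had 42.2 TPM.

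Other hair genes stood out in the same sample: Krt33a with 355 TPM, Krt34 with 266, Krt86 with 232, S100a3 with 780 and Psors1c2 with 399. Inner root sheath keratins had 2144 TPM (Krt71) and 1617 (Krt25). The regulators Dlx3, Cux1 and Hoxc13 had 105, 74.5 and 41.1 TPM.

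In positive replicate 2 the hair keratins summed to 22.1% of the Krtap TPM, against 14.1% to 14.5% in the other positive samples. This sample had 20 Krtap members with at least 10 counts.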

How the results depend on the processing

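Of the summary values recomputed under every alternative, 132 were labelled the same and 1 was not. That 1 was the count of members called, 3 with voom and sample quality weights instead of 0, and its cause was not tested. Medians and ratios were labelled the same when they moved by less than the spread between samples, 2.64 on the log2 scale. This limit is wide: the median of -4.51 and the ratio of 0.0428 without positive replicate 4 fell within it. The tally therefore does not show that medians and ratios were stable. Leaving out each sample in turn gave 0 to 0 members called, medians of -4.51 to -1.99 over all tested members, -4.52 to -2.07 for high sulfur, -4.46 to -2.18 for ultrahigh sulfur and -4.59 to -1.74 for high glycine-tyrosine, and ratios of the mean totals of 0.0428 to 0.268. The lower end of each is the fit without positive replicate 4.

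For genes taken singly, and counts over all genes or at an unadjusted p, 845 values were unchanged in call and direction, 21 newly passed the threshold or rose, 8 fell and 7 changed sign. Krtap5-3 changed sign without positive replicate 4 (-0.64) and had 2.03 at most, without positive replicate 3. Krtap31-2, with -0.30, was just above 0 in replicates 1 to 4 of both groups, an alternative chosen after seeing the data (0.083), and without negative replicate 3 (0.016), negative replicate 5 (0.065) and positive replicates 1 (0.030), 2 (0.078) and 3 (0.13), with a range of -3.35 to 0.13 when single samples were left out. Members lower at an unadjusted p under 0.05 numbered 12 of 51 (9.73% of all genes), 26 with DESeq2 (9.43%), 27 with quality-weighted voom (17.5%), 16 of 52 without the filter (7.8%), 1 with voom (8.29%), and 5 and 3 with limma-trend (7.53% and 7.44%). All genes called numbered 0 in edgeR, 83 with DESeq2, 1111 lower and 982 higher with quality-weighted voom, 1 without negative replicate 4 and 3 without negative replicate 7.

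No pairing by replicate number was seen: same-numbered samples correlated at -0.04, -0.14, -0.05 and 0.34. Pairs of unlike number ran from -0.67 to 0.53, a range too wide for this check to exclude a pairing. With the number as a replicate block in replicates 1 to 4, the members' median was -3.05, with 0 called and 11 of 48 lower at an unadjusted p under 0.05, against 7.71% of all genes in that fit. Without the block the same samples gave 16 of 48, against 7.76%. Classes by protein composition were not run. In negative replicate 7, whose Krtap level and not its depth was lowest, 11 members had 10 counts or more, so levels of single low members are imprecise there.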
